A study of Mus musculus with 6 samples.

Results

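The 10 genes described here are toll-like receptors, the proteins that bring lipopolysaccharide (LPS) to them, and their shared adaptor: Tlr2, Tlr3, Tlr4, Tlr5, Tlr7, Tlr13, Cd14, Ly96, Lbp and Myd88. They were picked by name, with earlier results of these data known. Each was found by its Ensembl identifier on GRCm38 among 54532 counted Ensembl genes. Liver RNA came from 6 mice, 1 library per mouse, with 3 wild-type mice and 3 mice of the Cd44-deficient line B6.Cg-Cd44tm1Hbg/J. Both genotypes received ethanol, first in a Lieber-DeCarli diet holding 5% of it by volume over 10 days and then as a 5 g/kg gavage on day 11, with the livers collected 9 hours later. A liver without ethanol was not analysed here, so every difference is between ethanol-exposed livers of different genotype. Age, sex and litter are not stated in the labels, and no restriction of the deletion to a cell type is named. Levels are CPM, the share of a library's counts scaled to a common total, on TMM-scaled library sizes, as mean ± SD with n = 3 per genotype. A negative log2 fold change means less in the knockout, and ± beside it is the standard error.

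Toll-like receptors are membrane proteins that recognise microbial molecules and signal through a cytoplasmic TIR domain. For LPS, the plasma protein LBP passes the lipid to CD14, CD14 hands it to MD-2 (the product of Ly96), and MD-2 sits on TLR4. Most toll-like receptors recruit MyD88, whereas TLR3 uses the adaptor TRIF (Ticam1) and TLR4 uses both. In the liver these genes are known for sensing bacterial products that arrive from the gut through the portal vein, a route that alcohol widens, with Kupffer cells, the resident macrophages, as a main site of TLR4 and CD14. LBP is made mainly by hepatocytes.

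The sequence just before the start of the gene was at hand for 5 of the 10 members (Tlr2, Tlr3, Tlr5, Tlr13 and Myd88), from RefSeq on GRCm38.p6. Those of Tlr2 and Tlr13, which had lower means in the knockout, are shown with those of Tlr5 and Myd88, whose means lay close together. Each is read 5′ to 3′ within the 250 bases before the RefSeq start, and bases that GENCODE places in an exon are left out. The Tlr2 and Tlr13 stretches end just before the GENCODE gene, while that of Myd88 lies inside the GENCODE span of the gene, since GENCODE has a longer transcript. Capitals mark motifs found on either strand: NF-kB, PU.1 and other ETS factors (GAGGAA), the interferon-stimulated response element, the TATA box (TATAAA) and SP1 (GGGCGG).
Tlr2, minus strand, chr3:83841768-83841858: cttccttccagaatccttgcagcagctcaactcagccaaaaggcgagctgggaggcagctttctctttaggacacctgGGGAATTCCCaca
Tlr13, plus strand, chrX:106143025-106143203: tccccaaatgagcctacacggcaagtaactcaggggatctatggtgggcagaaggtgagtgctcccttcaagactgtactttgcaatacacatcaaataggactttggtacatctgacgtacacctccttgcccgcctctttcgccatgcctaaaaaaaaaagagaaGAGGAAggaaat
Tlr5, plus strand, chr1:182954538-182954787: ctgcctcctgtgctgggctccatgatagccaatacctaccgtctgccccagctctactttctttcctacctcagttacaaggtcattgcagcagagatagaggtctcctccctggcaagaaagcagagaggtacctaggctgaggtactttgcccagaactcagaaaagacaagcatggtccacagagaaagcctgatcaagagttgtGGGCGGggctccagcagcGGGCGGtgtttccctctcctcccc
Myd88, minus strand, chr9:119340042-119340268: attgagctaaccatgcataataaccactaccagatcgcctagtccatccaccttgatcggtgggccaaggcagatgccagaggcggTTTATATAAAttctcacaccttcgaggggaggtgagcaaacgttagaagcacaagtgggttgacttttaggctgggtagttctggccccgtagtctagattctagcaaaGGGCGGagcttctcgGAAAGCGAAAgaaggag

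The Tlr2 stretch holds the NF-kB motif at 172 to 163 bases before the start, and the Tlr13 stretch holds GAGGAA at 83 to 78 bases. Tlr5 shows GGGCGG at 42 to 37 and at 24 to 19 bases. Myd88 carries the interferon-stimulated response element at 40 to 31 bases, a pair of overlapping TATA box matches and GGGCGG. Over 32817 RefSeq windows of the same 250 bases, the NF-kB motif was in 0.981%, GAGGAA in 23.3%, the interferon-stimulated response element in 2.97%, TATAAA in 12.4% and GGGCGG in 32.7%. The full window of Tlr3 also held an NF-kB motif, at 211 to 202 bases, in a part that GENCODE places in an exon, and that of Tlr2 held GGGCGG at 69 to 64 and 48 to 43 bases. A search for the AP-1 motif TGANTCA (in 6.75% of windows) matched none of the 5 windows, and the motifs were chosen after the sequences had been seen.

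Cd44 itself followed the labels, with 590, 175 and 568 counts in wild-type mice 1, 2 and 3 and 1, 0 and 0 counts in the knockout mice. Reads in Ensembl genes came to 15429784 to 19293777 per library, and the most that a count of 0 leaves room for, 3 counts, was 0.150 to 0.206 CPM. The tissue label fitted the hepatocyte genes, with albumin (Alb) at 63870 to 88520 CPM. Wild-type mouse 2 stood apart from the other wild-type mice in Kupffer cell markers: the summed level of 13 Kupffer cell markers was 1134 CPM in wild-type mouse 1, 402 in mouse 2 and 940.2 in mouse 3, against 381 to 393 CPM in the knockout mice. In bulk liver, fewer cells of a type and less RNA per cell cannot be told apart.

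No member passed an adjusted p of 0.05 over 14145 genes in edgeR's quasi-likelihood test, where 2 genes (0.0141%) did. All 10 members passed the filter on low counts, and 8 of 10 had a lower mean in the knockout, as did 51.1% of all genes tested. At an unadjusted p under 0.05 there were 4 members, Cd14, Tlr2, Tlr7 and Tlr13, all lower, beside 7.59% of all genes in that direction and 5.22% in the other. Without wild-type mouse 1, wild-type mouse 3 or knockout mouse 3 there were 2. For 2 members, Cd14 and Tlr2, every knockout mouse was below every wild-type mouse, as for 9.42% of all genes. For 0 members was every knockout mouse above (8.81% of all genes). DESeq2 called the same 2 members lower (1.59% of all genes) and 0 higher (0.912%), and limma-voom called none (0% of all genes; 2 members at an unadjusted p under 0.05). The median log2 fold change of the 10 was −0.52, and that of all genes tested was −0.01. Since the members were chosen with earlier results known, setting their counts beside these shares is not a test.

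**Figure D1:**
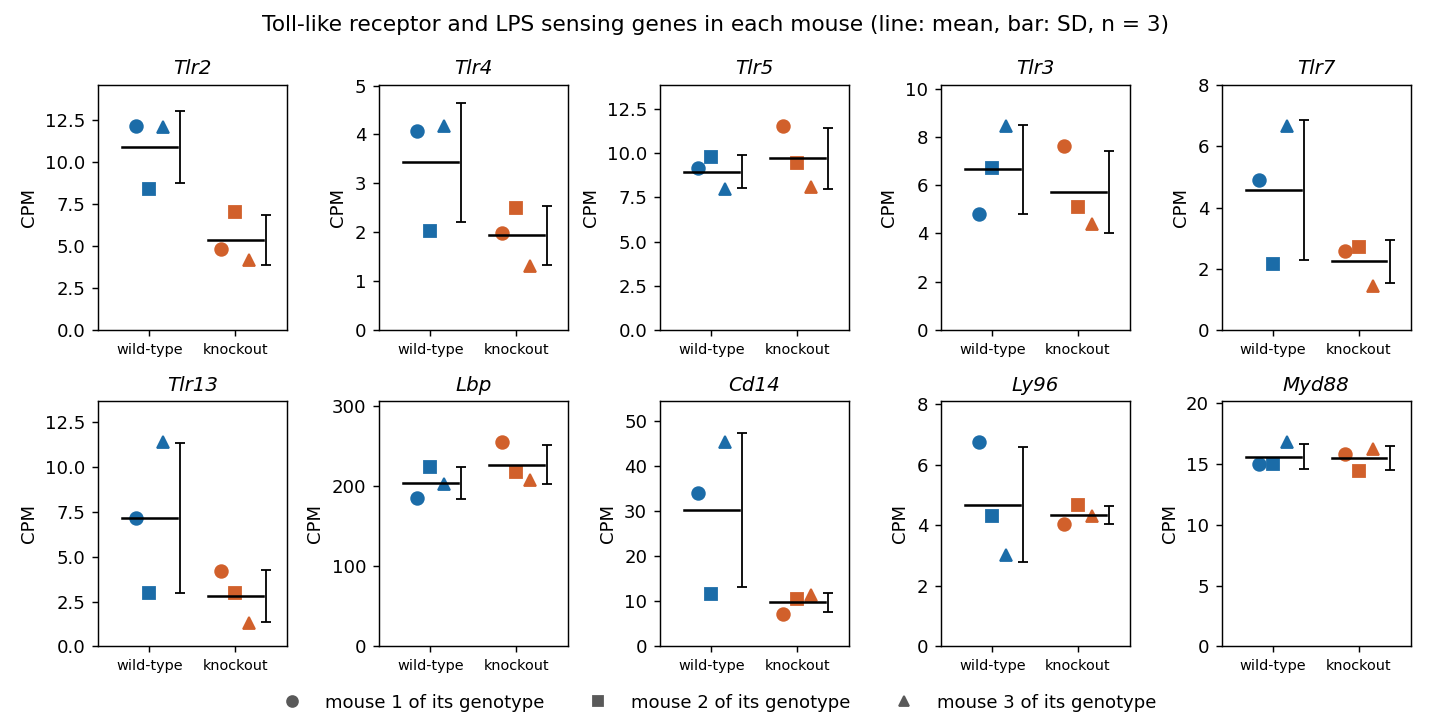
CPM of each of the 10 genes (vertical axes, from 0) in 3 wild-type and 3 knockout mice, with 1 point per mouse, a line at the mean and a bar for the SD. Wild-type mice 1 and 3 lie above the other 4 mice for Tlr2, Tlr4, Tlr7, Tlr13 and Cd14, while Myd88 lies between 14.4 and 16.8 CPM in all 6.

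Of the LPS binding genes, Cd14, Tlr4 and Ly96 had lower means in the knockout and Lbp a higher one, and Cd14 alone passed, in DESeq2 and not in edgeR. Lbp, the plasma carrier of LPS (ENSMUSG00000016024; chromosome 2, 158306493 to 158332852), was at 185, 224 and 202 CPM in wild-type mice and 255, 218 and 208 CPM in knockout mice. The genotypes overlapped for it (log2 fold change 0.15 ± 0.14, 95% interval −0.17 to 0.47, edgeR adjusted p = 0.714), with 0.076 without knockout mouse 1, 0.090 without wild-type mouse 1 and 0.235 without wild-type mouse 2. Lbp is also an acute-phase gene, and other acute-phase genes went both ways. Of 15 on the list, 8 had a lower and 7 a higher mean (median −0.08), and 0 passed in edgeR or DESeq2. At an unadjusted p under 0.05, 2 were lower (7.59% of all genes) and 4 higher (5.22%). The fibrinogen chain genes Fgb (2402 ± 160 CPM in wild-type, 3949 ± 1339 in knockout) and Fgg (1869 ± 181 and 3013 ± 1131 CPM) had higher means, by 0.72 and 0.69 on the log2 scale, and by 0.45 and 0.38 without knockout mouse 1. The secreted proteins Saa3 (4.804 ± 1.993 and 2.20 ± 0.308 CPM) and Orm2 (50.7 ± 13.3 and 31.2 ± 6.67 CPM) had lower ones. Lcn2 had the lowest log2 fold change of the list (−2.42 ± 1.09, edgeR adjusted p = 0.425). It was at 1528 CPM in wild-type mouse 3 and at 61.6 to 189 CPM in all other mice.

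Cd14, the LPS co-receptor anchored on macrophages and also released into plasma (ENSMUSG00000051439; chromosome 18, 36725067 to 36726798), was at 34.0, 11.7 and 45.3 CPM in wild-type mice 1, 2 and 3. The knockout mice gave 7.30, 10.6 and 11.4 CPM. Wild-type mice 1 and 3 were far above all others, and wild-type mouse 2 was only just above the highest knockout mouse. The log2 fold change was −1.63 ± 0.47 (95% interval −2.74 to −0.53, edgeR adjusted p = 0.248; DESeq2 adjusted p = 0.0120). Without wild-type mouse 2 it was −2.01 and passed in edgeR (adjusted p = 0.0162). Without wild-type mouse 3 it was −1.23 (adjusted p = 0.365). Over all alternatives the adjusted p ran from 0.0120 to 0.698.

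Ly96, which encodes the LPS-binding subunit MD-2 (ENSMUSG00000025779; chromosome 1, 16688051 to 16709611), did not follow Cd14. It was at 6.74, 4.31 and 3.01 CPM in wild-type mice and 4.05, 4.66 and 4.32 CPM in knockout mice, so that wild-type mouse 1 was highest and wild-type mouse 3 lowest of the 6. Its log2 fold change was −0.11 ± 0.31 (95% interval −0.82 to 0.61, edgeR adjusted p = 0.926), and 0.26 without wild-type mouse 1.

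Tlr4, the signalling receptor for LPS (ENSMUSG00000039005; chromosome 4, 66827584 to 66930284), rested on few reads, 75, 31 and 82 counts in wild-type mice and 30, 50 and 19 counts in knockout mice. These correspond to 4.08, 2.02 and 4.18 CPM and to 1.99, 2.51 and 1.303 CPM. Wild-type mice 1 and 3 were above all knockout mice, and wild-type mouse 2 lay among them. The 19 counts of knockout mouse 3 carry an exact Poisson 95% interval of 11.4 to 29.7 counts, for counting error only. The log2 fold change was −0.82 ± 0.37 (95% interval −1.67 to 0.04, edgeR adjusted p = 0.412), and leaving out 1 mouse moved it from −1.06 (without wild-type mouse 2, adjusted p = 0.163) to −0.60 (without knockout mouse 3, adjusted p = 0.853).

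The balance of the LPS receptor parts was compared as the log2 ratio of each partner to Tlr4 in each mouse, on reads per kilobase of exon. Cd14 to Tlr4 was 4.74, 4.21 and 5.12 in wild-type and 3.56, 3.77 and 4.81 in knockout mice, a difference of −0.65. Ly96 to Tlr4 was 3.17, 3.53 and 1.97 in wild-type and 3.47, 3.34 and 4.17 in knockout mice, a difference of 0.77. Lbp to Tlr4 was 5.71, 6.99 and 5.80 in wild-type and 7.20, 6.65 and 7.52 in knockout mice, a difference of 0.96. The genotypes overlapped in all 3 ratios. The difference for Cd14 was −0.40 without knockout mouse 1 and −1.03 without knockout mouse 3, and that for Ly96 was 0.31 without wild-type mouse 3. Two-sided exact permutation tests gave p = 0.3, 0.3 and 0.2, all 0.3 after adjustment over the 3 ratios, and 0.1 is the smallest p that 3 against 3 mice allow.

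**Figure D2:**
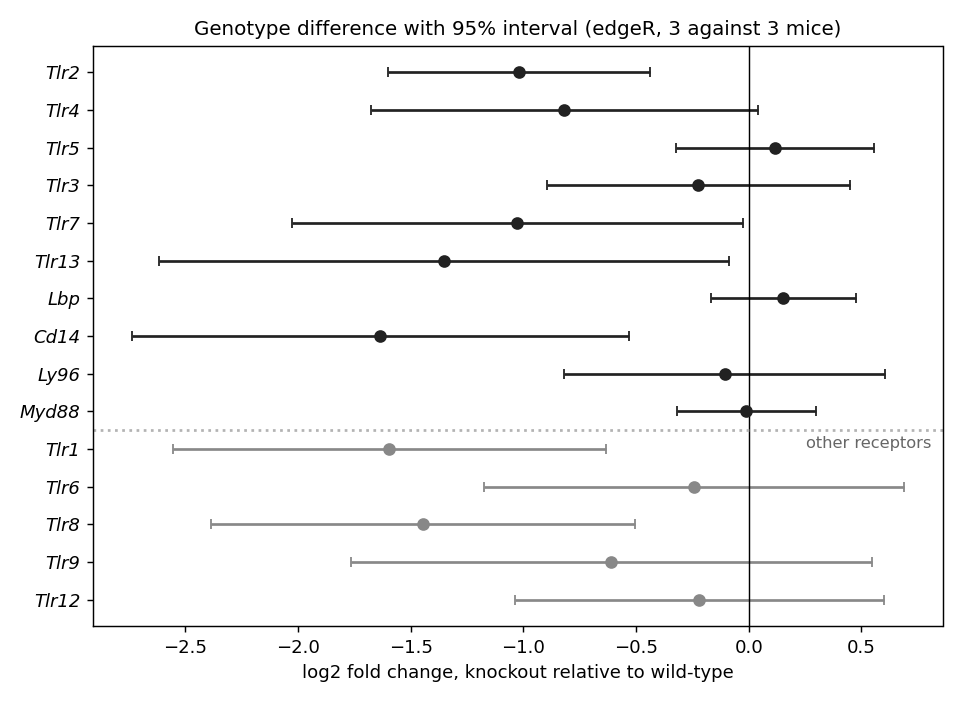
Log2 fold change of knockout relative to wild-type (horizontal axis) with its 95% interval from edgeR, for the 10 genes and, in grey, 5 other toll-like receptors. Intervals of Tlr2, Tlr7, Tlr13, Cd14, Tlr1 and Tlr8 lie below 0 before adjustment over genes, and those of the other 9 genes span 0.

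On the cell surface, the mean of Tlr2 was lower in the knockout and that of Tlr5 was not. Tlr2, which senses bacterial lipoproteins together with TLR1 or TLR6 (ENSMUSG00000027995; chromosome 3, 83836272 to 83841767), was at 12.2, 8.42 and 12.1 CPM in wild-type mice. The knockout mice gave 4.85, 7.01 and 4.18 CPM. All 3 wild-type mice were above all 3 knockout mice, with wild-type mouse 2 and knockout mouse 2 nearest to each other. Its log2 fold change was −1.02 ± 0.25 (95% interval −1.60 to −0.44, edgeR adjusted p = 0.217; DESeq2 adjusted p = 0.0312). Over all alternatives it ran from −1.27 to −0.87, with adjusted p from 0.0312 to 0.698.

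The partners of Tlr2 lie beside each other on chromosome 5 and gave unlike values. Tlr1 was at 5.77, 2.22 and 5.401 CPM in wild-type against 1.26, 1.95 and 1.17 CPM in knockout mice (log2 fold change −1.59 ± 0.42, edgeR adjusted p = 0.220; DESeq2 adjusted p = 0.0334). Its genotypes did not overlap, with wild-type mouse 2 close to knockout mouse 2. Tlr6 was at 1.00 ± 0.362 CPM in wild-type against 0.850 ± 0.159 CPM in knockout mice (−0.24 ± 0.40, adjusted p = 0.866), on 10 to 27 counts per library. TLR1 and TLR6 are close paralogs, and how reads that fit both were counted is not stated, so both values are uncertain.

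Tlr5, the receptor for bacterial flagellin (ENSMUSG00000079164; chromosome 1, 182954788 to 182976044), was at 9.14, 9.79 and 7.95 CPM in wild-type mice and 11.5, 9.47 and 8.09 CPM in knockout mice. The genotypes overlapped throughout (0.12 ± 0.19, 95% interval −0.32 to 0.56, edgeR adjusted p = 0.862). The sign turned without knockout mouse 1, the highest of the 6, to −0.01.

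Tlr3, Tlr7 and Tlr13 recognise nucleic acids in endosomes, and Tlr7 and Tlr13 had lower means in the knockout while the values of Tlr3 were interleaved. Tlr7, which senses single-stranded RNA (ENSMUSG00000044583; chromosome X, 167304929 to 167330558), was at 4.90, 2.15 and 6.68 CPM in wild-type against 2.59, 2.71 and 1.44 CPM in knockout mice. Wild-type mouse 2 lay below 2 of the knockout mice. The log2 fold change was −1.03 ± 0.43 (95% interval −2.03 to −0.03, edgeR adjusted p = 0.379), −1.34 without wild-type mouse 2 and −0.65 without wild-type mouse 3, which is a change of more than 1.5 times.

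Tlr13, the mouse receptor for bacterial ribosomal RNA (ENSMUSG00000033777; chromosome X, 106143204 to 106160493), had the widest spread on the log2 scale of the 6 receptors among the members. It was at 7.13, 3.00 and 11.4 CPM in wild-type against 4.18, 2.96 and 1.303 CPM in knockout mice. Wild-type mouse 2 was below knockout mouse 1, and knockout mouse 3 was lowest on 19 counts. Its log2 fold change was −1.35 ± 0.54 (95% interval −2.62 to −0.09, edgeR adjusted p = 0.365), and −0.86 without wild-type mouse 3, again a change of more than 1.5 times.

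Tlr3, the receptor for double-stranded RNA (ENSMUSG00000031639; chromosome 8, 45395665 to 45411080), was at 4.79, 6.72 and 8.46 CPM in wild-type mice and 7.63, 5.11 and 4.39 CPM in knockout mice. Wild-type mouse 3 was highest and knockout mouse 3 lowest, and the log2 fold change was −0.22 ± 0.29 (95% interval −0.90 to 0.45, edgeR adjusted p = 0.819). It came to −0.01 without wild-type mouse 3.

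The other endosomal receptors were Tlr8, Tlr9, Tlr11 and Tlr12. Tlr8, the neighbour of Tlr7 on the X chromosome, was at 7.45, 2.61 and 6.27 CPM in wild-type against 2.59, 1.75 and 1.71 CPM in knockout mice (−1.44 ± 0.41, edgeR adjusted p = 0.237; DESeq2 adjusted p = 0.0492). Its genotypes did not overlap, although wild-type mouse 2 and knockout mouse 1 nearly met. Tlr9, the receptor for unmethylated DNA, was at 1.05 ± 0.302 CPM in wild-type against 0.668 ± 0.394 CPM in knockout mice (−0.61 ± 0.50, adjusted p = 0.684), with −0.24 without knockout mouse 1, −0.34 without wild-type mouse 3 and −1.15 without knockout mouse 2. Tlr12, which pairs with TLR11 to sense the parasite protein profilin, was at 14.3 ± 3.82 and 12.3 ± 5.91 CPM (−0.22 ± 0.35, adjusted p = 0.860). Tlr11 had 2 to 7 counts per library and did not pass the filter on low counts.

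Myd88, the adaptor shared by most of these receptors (ENSMUSG00000032508; chromosome 9, 119335934 to 119341411), was the steadiest of the 10 genes. It was at 14.96, 15.01 and 16.8 CPM in wild-type mice and 15.8, 14.4 and 16.2 CPM in knockout mice. The log2 fold change was −0.01 ± 0.13 (95% interval −0.32 to 0.30, edgeR adjusted p = 0.986), and its sign turned without wild-type mouse 3 (0.045) or knockout mouse 2 (0.042). Exons of Myd88 share 290 bases, 11.3% of its exon length, with those of Acaa1a on the opposite strand, a peroxisomal thiolase gene at 204 CPM in wild-type against 189.7 CPM in livers of the knockout. No step that keeps strand is described for these libraries, so part of the Myd88 count may come from Acaa1a.

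**Figure D3:**
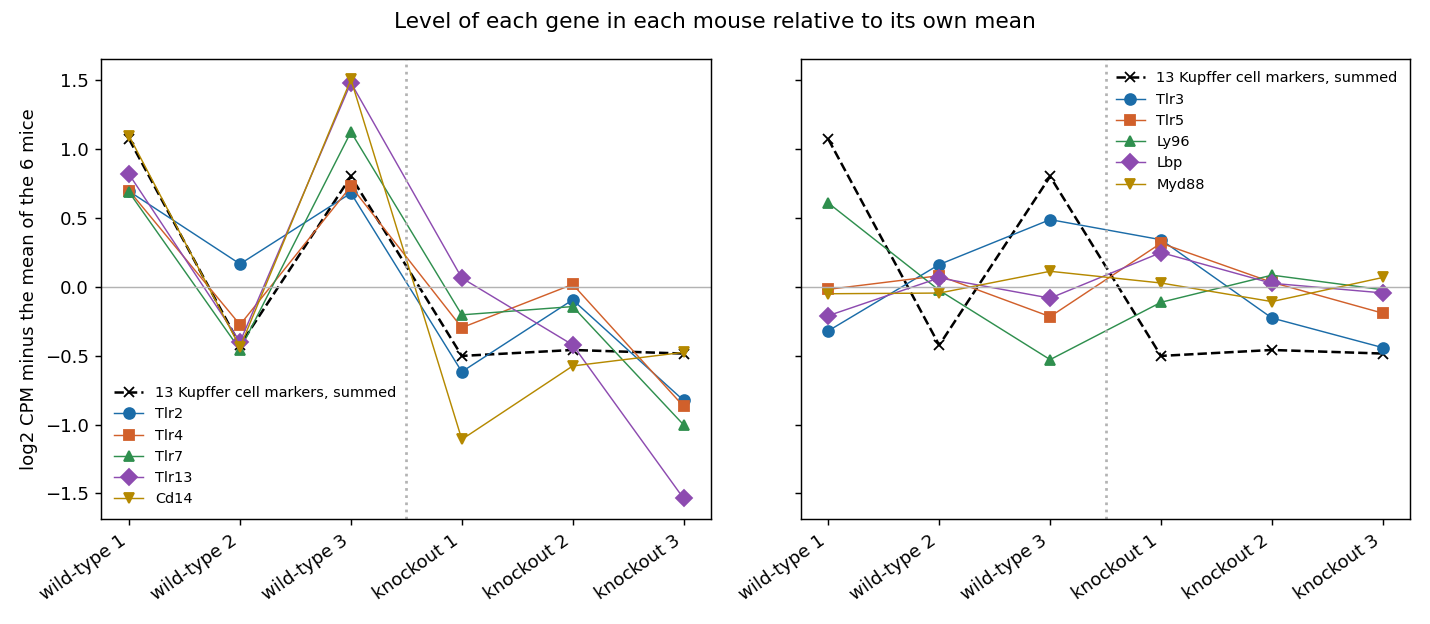
Log2 CPM of each gene minus its mean over the 6 mice (vertical axis) in each mouse (horizontal axis), with the summed level of 13 Kupffer cell markers as a dashed line on the same scale. Genes in the left panel were put together after their values were seen: Tlr2, Tlr4, Tlr7, Tlr13 and Cd14 are high in wild-type mice 1 and 3, as are the Kupffer cell markers, and the 5 genes on the right are not.

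Levels of different genes were compared per kilobase of exon. In wild-type mice Lbp was highest at 42.2 ± 4.03 CPM per kilobase, followed by Cd14 at 17.5 ± 9.87, Myd88 at 6.05 ± 0.398, Ly96 at 4.59 ± 1.86 and Tlr2 at 3.61 ± 0.711. Tlr5 (1.87 ± 0.195), Tlr13 (1.66 ± 0.971), Tlr3 (1.28 ± 0.353), Tlr7 (1.121 ± 0.558) and Tlr4 (0.617 ± 0.219 CPM per kilobase) came last. Values of neighbours in this order did not overlap between Lbp and Cd14, between Cd14 and Myd88, and between Tlr2 and Tlr5, and they overlapped for every other neighbouring pair. In knockout mice Lbp stayed first at 47.0 ± 5.09 CPM per kilobase, Cd14 at 5.64 ± 1.25 overlapped Myd88 at 6.01 ± 0.379, and Tlr2 at 1.77 ± 0.491 overlapped Tlr5 at 2.03 ± 0.364. Tlr4 was last there too, at 0.348 ± 0.109 CPM per kilobase.

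**Figure D4:**
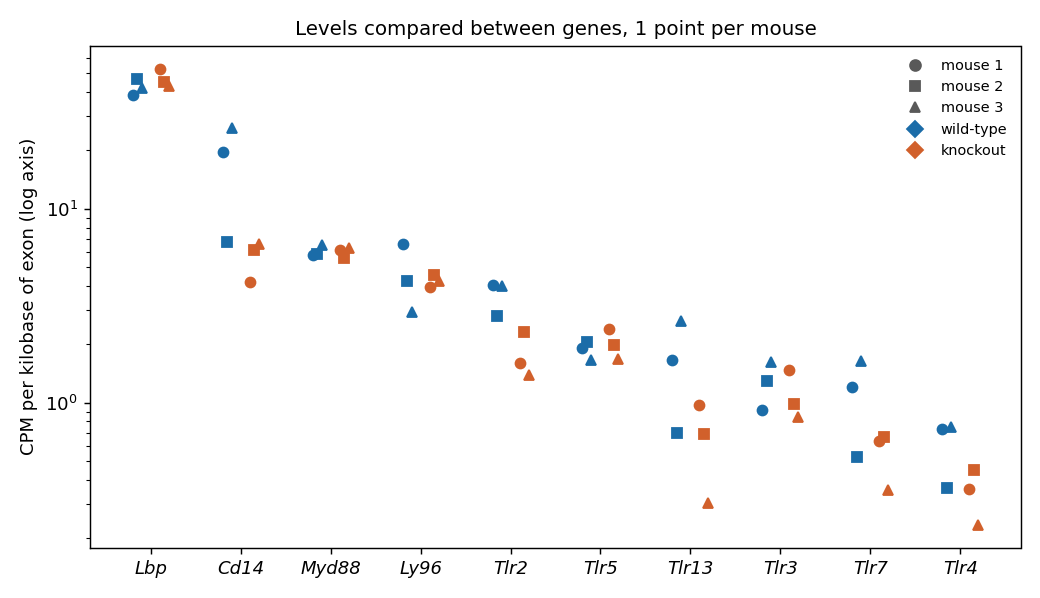
CPM per kilobase of exon on a log axis for the 10 genes, ordered by the wild-type mean, with 1 point per mouse. Lbp lies above all other genes in every mouse, and the 3 wild-type points of Cd14 lie above those of Myd88, while the knockout points of both overlap.

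Like Cd14, Tlr2, Tlr4, Tlr7 and Tlr13, which were grouped after their values were seen, markers of macrophages had lower means in the knockout. Summed marker levels were also highest in wild-type mice 1 and 3. Across knockout mice 1, 2 and 3 the profiles were not all alike. Relative to the mean of the 6 mice, log2 values were −0.502, −0.459 and −0.485 for the Kupffer cell sum. The monocyte and infiltrating macrophage sum gave −0.490, −0.353 and −0.797, and Tlr13 gave 0.063, −0.422 and −1.536. All 13 Kupffer cell markers were lower on average in the knockout (median −1.22). At an unadjusted p under 0.05 there were 10, all lower, beside 7.59% of all genes in that direction. For 5 of the 13 the genotypes did not overlap, knockout below (9.42% of all genes). Among the 13 were Cd5l, a secreted macrophage protein (172 ± 99.95 and 45.9 ± 3.08 CPM), C1qc (82.2 ± 35.5 and 39.7 ± 2.88 CPM) and Clec4f (125 ± 48.5 and 81.0 ± 5.72 CPM). C1qc and Clec4f overlapped, and Clec4f in wild-type mouse 2 (70.3 CPM) was below all knockout mice (77.5 to 87.6 CPM). Fcna differed little (log2 fold change −0.10). All 11 monocyte and infiltrating macrophage markers had a lower mean too (median −0.98), with a summed level of 244 to 463 CPM in wild-type against 133 to 181 CPM in knockout mice. For neither list did edgeR call a member over all genes, while DESeq2 called 5 and 4, all lower, beside 1.59% of all genes. None of these markers was at 0 in all mice. The summed level of neutrophil markers overlapped, at 6.59 to 9.78 CPM in wild-type against 3.15 to 7.10 CPM in knockout mice. Of 9 markers, 4 passed the count filter, all lower in mean. S100a9 (1.72 ± 0.28 and 0.5975 ± 0.418 CPM) and Mmp9 (1.107 ± 0.2355 and 0.347 ± 0.049 CPM) did not overlap, knockout below (9.42% of all genes). Both had an unadjusted p under 0.05 in edgeR (7.59% of all genes), on 5 to 40 counts per library. The other tested markers overlapped, and edgeR and DESeq2 called 0. Of the neutrophil markers, Ly6g, Mpo and Elane had 0 to 2 counts per library. Dendritic cell markers summed to 16.8 to 22.5 and 11.1 to 15.9 CPM (5 of 7 tested, all lower). The part of these cells in the values of Cd14 and the receptors was not tested.

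Summed marker levels of most other cells overlapped between the genotypes, though some single markers did not. Hepatocyte markers summed to 91500 to 105200 CPM in wild-type against 96560 to 119900 CPM in knockout mice, with 8 of 10 higher in mean (median 0.12). Alb alone made up 63870 to 88520 CPM of these sums. Sinusoidal endothelial markers overlapped at 254 to 540.4 and 306 to 414 CPM (6 of 10 lower), and stellate cell markers at 496 to 665 and 423 to 518 CPM (8 of 9 lower). At an unadjusted p under 0.05 there were 1 endothelial and 3 stellate markers, all lower, beside 7.59% of all genes in that direction. Every knockout mouse was below every wild-type mouse for Stab1, Col3a1 and Pdgfrb, as for 9.42% of all genes. Of these, DESeq2 called Col3a1 (log2 fold change −1.47, DESeq2 adjusted p = 0.0192). T and NK cell markers overlapped at 1.99 to 5.22 and 0.929 to 4.91 CPM, where 2 of 7 passed the count filter. Cholangiocyte markers were the exception and did not overlap, at 51.7 to 65.2 CPM in wild-type against 27.5 to 36.4 CPM in knockout mice (5 of 6 tested, all lower). Of this sum Spp1, which macrophages also express, made up 36.5 to 52.7 CPM in wild-type mice and 18.1 to 25.5 CPM in knockout mice. The other tested markers, Krt19, Krt7, Epcam and Sox9, had lower means too (log2 fold changes −1.24, −0.49, −0.26 and −0.65), and each overlapped between the genotypes. The part of Spp1 in the gap was not tested.

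Of 17 adaptor, kinase and ubiquitin ligase genes, 16 were tested, 9 with a lower and 7 with a higher mean (median −0.02). There edgeR called 0, with 2 lower at an unadjusted p under 0.05, beside 7.59% of all genes. Ikbke, an interferon-linked kinase of the IKK family, was at 55.5, 36.1 and 56.7 CPM in wild-type against 33.7, 25.8 and 26.6 CPM in knockout mice, without overlap (−0.79 ± 0.20, edgeR adjusted p = 0.217; DESeq2 adjusted p = 0.0372). Traf3 gave −0.56 ± 0.24 (adjusted p = 0.381), and −0.34 without wild-type mouse 1. Tirap, which brings MyD88 to TLR2 and TLR4, gave 0.34 ± 0.17 (adjusted p = 0.447), and 0.20 without knockout mouse 1. Chuk, the kinase IKK-alpha, gave 0.23 ± 0.16 (adjusted p = 0.626), with 0.08 without knockout mouse 3 and 0.36 without knockout mouse 1. The TRIF gene Ticam1 was at 18.4 to 23.6 CPM in wild-type against 20.0 to 23.4 CPM in knockout mice. Its partner Ticam2, which shares exon sequence with Tmed7 on the same strand, did not pass the count filter.

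Chaperones and transport proteins of the receptors were mixed, with 6 of 8 lower in mean (median −0.19) and 0 called in edgeR. At an unadjusted p under 0.05 there were 3, all lower, beside 7.59% of all genes. Unc93b1, which carries nucleic acid sensing receptors to endosomes, was at 48.0, 51.8 and 49.7 CPM in wild-type against 37.1, 42.9 and 37.2 CPM in knockout mice. Here wild-type mouse 2 was the highest of the 6, and the genotypes did not overlap (−0.35 ± 0.11, edgeR adjusted p = 0.274). Slc15a3, an endosomal peptide and histidine transporter, was at 20.7 ± 8.70 and 7.54 ± 0.829 CPM (−1.46 ± 0.33, adjusted p = 0.217; DESeq2 adjusted p = 0.00370). Its exons share 28.1% of their length with Tmem132a on the opposite strand (3.51 and 1.88 CPM), and it is uncertain. Nrros was at 7.93 ± 2.24 and 4.54 ± 0.857 CPM (−0.82 ± 0.27, adjusted p = 0.290), and Rab7b at 3.19 ± 1.02 and 1.84 ± 0.610 CPM (−0.77 ± 0.35, adjusted p = 0.415), with −0.48 without wild-type mouse 1.

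Of 13 negative regulators, 11 were tested and 9 had a lower mean (median −0.12). For these edgeR called 0, with 3 lower at an unadjusted p under 0.05, beside 7.59% of all genes. The 2 with a higher mean were Tollip (0.19 ± 0.17, edgeR adjusted p = 0.706) and Atf3 (1.38 ± 1.02, adjusted p = 0.653). Both overlapped between the genotypes. The 4 genes described next were those with the smallest p of the list. Cd180, a TLR4-like receptor without a TIR domain, was at 5.93, 2.54 and 4.74 CPM in wild-type against 1.66, 1.55 and 1.37 CPM in knockout mice (−1.53 ± 0.35, edgeR adjusted p = 0.217; DESeq2 adjusted p = 0.0191). Its partner Ly86, or MD-1, was at 8.04 ± 4.15 and 4.39 ± 0.663 CPM (−0.88 ± 0.41, adjusted p = 0.419), and −0.54 without wild-type mouse 3. Tnfaip3, the deubiquitinase A20, was at 14.0, 6.46 and 18.9 CPM in wild-type against 4.98, 4.36 and 4.18 CPM in knockout mice (−1.55 ± 0.37, adjusted p = 0.217; DESeq2 adjusted p = 0.00724). Irak3, an inactive IRAK kinase of monocytes, was at 5.05 ± 0.864 and 2.76 ± 1.24 CPM (−0.88 ± 0.33, adjusted p = 0.325).

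Other LPS handling genes had a median of −0.29, with 8 of 10 lower in mean and 0 called in edgeR. At an unadjusted p under 0.05, 4 were lower, beside 7.59% of all genes. Msr1, the scavenger receptor of macrophages, was at 29.3 ± 11.7 and 12.7 ± 1.53 CPM (−1.20 ± 0.29, edgeR adjusted p = 0.217; DESeq2 adjusted p = 0.0105). Itgb2, the leukocyte integrin beta chain, was at 22.8 ± 9.35 and 8.22 ± 2.89 CPM (−1.46 ± 0.39, adjusted p = 0.229; DESeq2 adjusted p = 0.0120). Aoah, which inactivates LPS by removing acyl chains, was at 3.01 ± 1.86 and 1.23 ± 0.270 CPM (−1.29 ± 0.50, adjusted p = 0.344), and −0.76 without wild-type mouse 1. Pltp, a plasma lipid transfer protein related to LBP, was at 32.1 ± 4.21 and 25.6 ± 2.52 CPM (−0.33 ± 0.14, adjusted p = 0.390), and 19.3% of its exon length is shared with Ctsa on the opposite strand.

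Transcription factors below the receptors had a median of −0.46, with 6 of 8 lower in mean and 0 called in edgeR. At an unadjusted p under 0.05, 2 were lower, beside 7.59% of all genes. Spi1, or PU.1, the factor that defines myeloid cells, was at 20.3, 8.62 and 23.1 CPM in wild-type against 7.17, 6.26 and 7.41 CPM in knockout mice (−1.33 ± 0.34, edgeR adjusted p = 0.220; DESeq2 adjusted p = 0.0171). Irf5, a macrophage factor downstream of MyD88, was at 17.7 ± 4.81 and 10.5 ± 0.223 CPM (−0.75 ± 0.21, adjusted p = 0.237), and shares 14.1% of its exon length with Tnpo3 on the opposite strand. Jun gave −0.79 ± 0.46 (adjusted p = 0.541), with −0.24 without wild-type mouse 1 and −1.21 without knockout mouse 2. Fos gave −1.10 ± 0.85 (adjusted p = 0.663), with 84.4 CPM in wild-type mouse 1 and 7.41 to 27.4 CPM in the other 5 mice, and 0.30 without wild-type mouse 1. Cytokine genes that the receptors induce showed the lowest median, −1.54, with 9 of 13 tested and 8 lower in mean (51.1% of all genes). At an unadjusted p under 0.05 there were 6, all lower (7.59% of all genes). There edgeR called 0 and DESeq2 called 3, all lower (1.59% of all genes). The monocyte chemokine Ccl2 was at 11.1, 5.48 and 6.83 CPM in wild-type mice and 1.73, 1.05 and 1.17 CPM in knockout mice, without overlap (−2.58 ± 0.35, edgeR adjusted p = 0.217; DESeq2 adjusted p = 2.052e-07). Cxcl10, an interferon-induced chemokine whose exons overlap those of Art3, gave −1.63 ± 0.30 (adjusted p = 0.217), and Cxcl2, which attracts neutrophils, gave −2.63 ± 0.54 (adjusted p = 0.217) on as few as 2 counts. In this list Ifnb1, interferon beta, had no read in any library, and Ccl3 was at 1.53 ± 0.309 and 0.531 ± 0.174 CPM (−1.54 ± 0.39, adjusted p = 0.217).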

How the data were processed

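Liver poly(A) RNA of 6 mice was sequenced, copied with random hexamers, per the labels' protocols. The authors deposited raw counts of reads per Ensembl gene, with 1 column per mouse. Per the submitters' processing notes the genome build was GRCm38.p6 and the tools included featureCounts 1.5.0-p3, HISAT2 2.0.5 and StringTie 1.3.3b. Which annotation they used, whether strand was kept and how reads with several places were counted is not given in the sources used here. Of 54682 rows, 54495 matched GENCODE M21; 150 gene models without a gene name (0.273% to 0.509% of counts) were left out. Counts were fitted in R 4.3.3 with edgeR 4.0.16 (filterByExpr, TMM, robust quasi-likelihood F test, Benjamini-Hochberg adjustment). DESeq2 1.42.0 and limma 3.58.1 (voom), checked with edgeR on simulated counts, were alternatives, with RLE scaling, other count filters, a block for mouse number, the older quasi-likelihood fit and leaving out each mouse. Intervals of 95% use the fit's degrees of freedom. Exon lengths merge all GENCODE exons of a gene. P-values of the fits set the genotype difference against the spread between these mice, which each fit adjusts per gene with information from all genes. The members, gene lists, markers and tests were chosen with earlier results of these data known. Named besides the members were the other toll-like receptors and up to 4 genes of each pathway list by smallest p. Of each marker list, up to 3 were named by mean. Ticam1, Ticam2, Ifnb1, Tollip, Atf3 and Lcn2 were added after their values were seen. Fcna, Pdgfrb, Krt19, Krt7, Ly6g, Mpo and Elane were named outside the rule for marker lists, with their values known.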

Additional observations from a re-analysis of the deposited data

How the results depend on the processing

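Over 13 alternatives for each of the 10 members, 123 of 130 values kept their sign and their side of the threshold. The others were Tlr2 with DESeq2 (−1.02, adjusted p = 0.0312), Cd14 with DESeq2 (−1.63, 0.0120) and without wild-type mouse 2 (−2.01, 0.0162), and sign changes of Tlr5 without knockout mouse 1 (−0.012; 0.237 at most when 1 mouse was left out), Ly96 without wild-type mouse 1 (0.258; lowest −0.354), and Myd88 without wild-type mouse 3 (0.045) or knockout mouse 2 (0.042), with −0.04 the lowest. Of 34 other named genes, sign changes were seen in Tlr6 without wild-type mouse 3 (0.06; lowest −0.444), Tlr12 without knockout mouse 3 (0.038; lowest −0.655) and Fos without wild-type mouse 1 (0.295; lowest −1.584). Cd44 lost its call with limma-voom and without each of the knockout mice (adjusted p = 0.283, 0.331, 0.0977 and 0.158). Calls were gained in 25 of the 440 values of these genes, 12 with DESeq2 and 12 without wild-type mouse 2 (adjusted p from 0.0106 for Slc15a3 to 0.0496 for Itgb2; Tlr1, Tlr8 and Ikbke at 0.0429), and 1, Ccl2, without a count filter (0.0216). The number of members called was 0, and 2 with DESeq2 and 0 to 1 when 1 mouse was left out. The number at an unadjusted p under 0.05 was 4, and 2 with limma-voom, 2 with the block and 2 to 5 when 1 mouse was left out (2 without wild-type mouse 1, wild-type mouse 3 or knockout mouse 3). Genes called over the whole table numbered 2, and 6 without a count filter, 1 with the replicate block, 1 with the older fit, 340 with DESeq2, 0 with limma-voom, and 0 to 151 when 1 mouse was left out (151 without wild-type mouse 2). Mouse numbers did not pair the mice: deviations of same-numbered mice from their group means correlated at −0.016, −0.018 and −0.01, and no mouse of 3 correlated best with its own number. The 3 ratios to Tlr4 kept their sign whichever 1 mouse was left out, without a test able to pass. Counts in place of reads per kilobase could not change their genotype differences, since gene length is the same in every mouse. The causes of these changes were not tested. Depth limits Tlr4, Tlr7 and Tlr13, with as few as 19 to 21 counts in a library, and Tlr6, Tlr9 and Tlr11 more so.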

Other observations

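B cell markers varied widely between mice of both genotypes, with summed levels of 7.80 to 240.3 CPM in wild-type against 17.9 to 214 CPM in knockout mice. Ighm, the heavy chain of immunoglobulin M, was at 11.3, 227 and 5.61 CPM in wild-type mice 1, 2 and 3 and at 15.9, 88.2 and 206 CPM in knockout mice 1, 2 and 3. Wild-type mouse 2, which was low in Kupffer cell markers, was the highest of the 6, and the genotypes overlapped. Tlr9, which B cells also express, was at 0.979, 0.783 and 1.38 CPM in wild-type and 0.266, 1.05 and 0.686 CPM in knockout mice.

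For each member, the 3 genes with the most similar profile over the 6 mice were taken from 11185 other protein-coding genes with a mean log2 CPM of at least 1, by the root mean square difference of centred log2 CPM. Nearest to Tlr2 were Alox5ap (0.067), Adcy7 (0.086) and H2-DMb1 (0.094), where Tlr2 itself had an SD of 0.638. Nearest to Cd14 were Cdh1 (0.079), Clec4a2 (0.089) and Fst (0.144), beside an SD of 1.04. Tlr4 and Tlr7 shared Col4a1 among their nearest genes (0.111 and 0.140).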
